A study of Homo sapiens with 4 samples.

Results

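Hyaluronan is a long, unbranched sugar polymer of the extracellular matrix that is made at the plasma membrane and pushed directly out of the cell. The genes described here are 10 of the 61541 in the count table: the synthases HAS1, HAS2 and HAS3, the receptors CD44 and HMMR, and the breakdown genes HYAL1, HYAL2, HYAL3, CEMIP and CEMIP2. They were looked up by symbol, and the group was selected on its HAS2 count, which was higher after cadmium. That difference, and every other cadmium to control difference among the 10 genes, is therefore a description of these libraries and carries no test. RNA was sequenced from MDA-MB-231, an established cell line from human breast cancer with mesenchymal character. The cadmium group had been passaged long term with cadmium sulfate at a final 10 µM until resistant, and the control group was passaged in ordinary medium, so that both groups are serially passaged descendants of the same parental line, and the labels name no genetic change. Each group had 2 libraries. Control libraries carry the numbers 2 and 3 in the count table and are called control 2 and control 3, and the others are called cadmium 1 and cadmium 2. The titles of the controls call them biological replicates. The sources used here do not say whether the cadmium libraries came from separately selected cultures, so their spread may be technical and p-values measure only the spread between these libraries.

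The synthases join glucuronic acid and N-acetylglucosamine from their UDP-activated forms into the chain. CD44 is the main cell surface receptor for the polymer, and HMMR is a second binding protein that also works on the mitotic spindle inside the cell. Long chains are cut in the matrix with the help of CEMIP, a secreted or membrane-bound hyaluronan-binding protein, and CEMIP2 is its transmembrane paralog. HYAL2, anchored at the cell surface, and HYAL1, in lysosomes, cut them further. MDA-MB-231 is widely used as a cell that makes hyaluronan through HAS2 and carries abundant CD44.

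Assigned reads per library ranged from 51934729 to 61916007. The control libraries stood further apart than the cadmium libraries, with a more than 2-fold difference for 23.6% of 19816 tested genes against 6.55% in the cadmium pair. The metal-response genes MT2A, MT1X and HMOX1 had log2 fold changes of 2.06, 2.87 and 2.48 (DESeq2 adjusted p = 9.41e-06, 3.48e-13 and 1.58e-08), which is the direction the labels call for. VIM, a mesenchymal filament gene, had 39062 to 51044 normalized counts and the estrogen receptor gene ESR1 had 2.13 to 18.9, as is known for the line. Of the other receptor genes listed as absent or low in the line, PGR had 6.38 to 29.6 normalized counts. ERBB2 was not low, with 4584 to 6773. The epithelial genes CDH1 and EPCAM, listed in the same way, were not absent, with 107 to 615 and 662 to 2410 normalized counts, and both differed most between the controls. Among 10 markers of blood, endothelial and fibroblast cells, the leukocyte gene PTPRC had 1.89 and 144 normalized counts in the controls and 36.8 and 42.5 in the cadmium libraries, and the endothelial gene PECAM1 had 160 and 842 against 686 and 641. The other endothelial genes stayed low, with 2.13 to 15.8 for CDH5 and 22.3 to 60.7 for VWF, as did CD68 at 5.68 to 9.95. CD3E had 0 reads in every library and HBA1 and HBB at most 3, while COL1A1 and PDGFRB had 501 to 930 and 530 to 729. The part of these markers in the results was not tested.

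The promoters of CEMIP and CEMIP2 are shown because CEMIP was lower in both cadmium libraries and its paralog CEMIP2 was not, and because the study concerns MTF-1, the factor that binds metal response elements. Sequences are from RefSeq (GRCh38.p14), which had an entry for 9 of the 10 genes and none for HAS2. Each line gives the 250 bases before the RefSeq start site, 5′ to 3′ on the gene's strand, in lower case with motif matches in capitals. The CEMIP window is chr15:80779120-80779369 on the plus strand, and the CEMIP2 window is chr9:71768514-71768763 on the minus strand, inside the gene as the count table draws it.
CEMIP: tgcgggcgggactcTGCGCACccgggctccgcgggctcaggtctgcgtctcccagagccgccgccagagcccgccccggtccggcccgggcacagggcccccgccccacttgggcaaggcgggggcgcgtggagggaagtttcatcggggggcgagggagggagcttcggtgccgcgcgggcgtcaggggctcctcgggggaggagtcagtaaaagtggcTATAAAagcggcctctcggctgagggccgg
CEMIP2: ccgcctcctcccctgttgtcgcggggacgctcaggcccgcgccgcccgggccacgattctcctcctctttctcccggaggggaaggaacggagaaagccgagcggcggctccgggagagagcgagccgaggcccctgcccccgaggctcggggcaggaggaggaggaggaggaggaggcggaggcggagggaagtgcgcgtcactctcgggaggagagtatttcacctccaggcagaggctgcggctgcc
The search covered both strands from 250 bases before to 50 bases after the start site for the metal response element core, as TGCACNC or TGCGCNC, for the AP-1 site TGANTCA and for the TATA box TATAAA. CEMIP held a metal response element core, first base at -236 from the start site, and a TATA box, first base at -30, both on the gene's own strand and not overlapping. The other 8 searched promoters, CEMIP2 among them, held none of these letters. Among 35116 promoters of this length, 29.6% held a metal response element core in either form, 7.71% an AP-1 site and 11.5% a TATA box. A match in this window is a description of the letters and not a measured binding site. The study itself reported MTF-1 changes mostly away from start sites, with FOS/JUN motifs enriched where binding was gained. It also cited work in which MTF-1 did not bind consensus elements in the presence of cadmium.

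HAS2 had the highest level per length of the synthases in every library, and its count was the value that chose the genes. HAS2 (ENSG00000170961, chromosome 8, 121612116 to 121641440, hg38, minus strand) had 574 normalized counts in control 2 and 505 in control 3. It had 1974 in cadmium 1 and 1765 in cadmium 2. The libraries of each group lay close together, within 1.14-fold in the controls and 1.12-fold in the cadmium pair, and the groups did not overlap. The means were 540 ± 49.0 and 1869 ± 147 (SD, n = 2 each), which is 3.46-fold and a log2 fold change of 1.79 ± 0.27 (SE). Setting each cadmium library against each control (4 pairings), the log2 ratio lay between 1.62 and 1.96, on the log2(normalized count + 1) scale. In bulk RNA, more cells expressing a gene and more RNA per cell cannot be told apart, here and in every comparison that follows.

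HAS2-AS1, a long noncoding RNA gene on the opposite strand (121639293 to 121994185), overlaps only the 5′ end of HAS2. It shares 251 of the 4240 exon bases of HAS2. Reads were counted without regard to strand, and reads that overlap both genes were dropped, so neither the shared stretch nor the strand of origin is resolved. HAS2-AS1 had 19, 60, 87 and 75 reads in control 2, control 3, cadmium 1 and cadmium 2. Both cadmium libraries were above both controls, but the controls differed 3.55-fold in normalized count, and the log2 fold change of 0.98 ± 0.73 (SE) did not pass the test (DESeq2 adjusted p = 0.956). It was 0.33 without control 2 and 2.15 without control 3. HAS2 had 607, 475, 1983 and 1788 reads in the same order, and HAS2-AS1 reads came to 3.13% and 12.6% of HAS2 reads in the controls and 4.39% and 4.19% in the cadmium libraries.

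The other synthases were low. HAS3 had normalized counts of 88 and 148 in the controls and 99.5 and 78.0 in the cadmium libraries, so the groups overlapped (log2 fold change -0.41 ± 0.51, SE). It shares 365 of its 5200 exon bases with CHTF8 on the opposite strand. HAS1 had 6 reads in both controls and in cadmium 1, and 10 in cadmium 2. At this depth no HAS1 difference was detectable, and its mean was under the filter of the test. On a per-length scale (TPM, reads per exon base scaled to the same total in every library), HAS2 made up 87.4% and 79.2% of the summed synthase level in the controls and 95.5% in both cadmium libraries. Summed synthase TPM was 11.5 ± 0.38 in control and 35.6 ± 3.77 in cadmium (SD, n = 2 each).

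Neither receptor gene had a higher mean in the cadmium group. CD44 was the most abundant of the 10 genes in every library, with 163 and 203 TPM in the controls and 163 and 189 TPM in the cadmium libraries. Its normalized counts were 22430 and 25973 in the controls and 20725 and 24953 in the cadmium libraries, so the groups overlapped in part. The log2 fold change was -0.08 ± 0.26 (SE). A gene-level count sums all CD44 splice forms, so a change in their mix would not show. The ratio of CD44 to HAS2 TPM was 16.6 and 21.8 in the controls and 4.46 and 6.0 in the cadmium libraries.

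HMMR was lower in each cadmium library than in either control. Its normalized counts were 1227 in control 2 and 981 in control 3, against 751 in cadmium 1 and 743 in cadmium 2. The log2 fold change was -0.56 ± 0.29 (SE), and it did not pass the threshold of the fit. It did pass when control 3 was left out, at -0.73, and was -0.39 without control 2. As HMMR is a mitotic gene as well as a hyaluronan receptor gene, a list of 12 mitotic partners was set beside it. Of these, 10 were below 0 in log2 fold change and 2 above, with a median of -0.16. Of all 19816 tested genes, 10418 were below 0 and 9398 above. Among the 12, 0 were called in either direction, where 0.601% of all tested genes were called higher and 0.535% lower. MKI67, a proliferation marker, had a log2 fold change of -0.31 ± 0.29 (SE) (DESeq2 adjusted p = 1.00), and TOP2A, a chromosome-untangling enzyme, had -0.15 ± 0.27 (SE) (adjusted p = 1.00). Without control 3, where 2678 genes were called higher and 3511 lower of 19813, MKI67 was -0.53 and was called lower, as were BUB1, CDK1, KIF11 and PLK1, while TOP2A was 0.022. Without control 2, where 1150 were called higher and 1161 lower of 15625, TOP2A was -0.31 and was called lower, and MKI67 was -0.077.

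**Figure D1:**
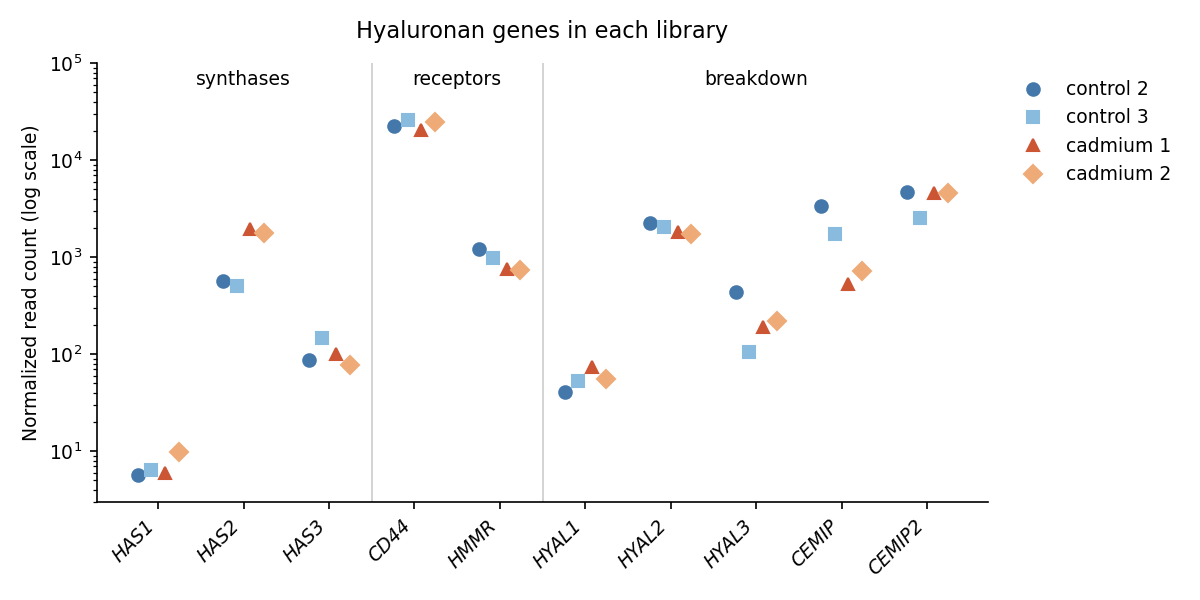
Normalized read count of each of the 10 hyaluronan genes in each of the 4 libraries, on a log scale, with synthases, receptors and breakdown genes separated by vertical lines. HAS2 lies at 505 to 574 in the controls and 1765 to 1974 in the cadmium libraries, CEMIP lies at 1727 to 3363 and 530 to 728, and HYAL3 shows the widest gap between controls.

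Among the breakdown genes CEMIP stood out, in the opposite direction to HAS2. CEMIP (ENSG00000103888, chromosome 15, 80779343 to 80951776, plus strand) had 3363 normalized counts in control 2 and 1727 in control 3, against 530 in cadmium 1 and 728 in cadmium 2. Both cadmium libraries were far below the lower control, although the controls themselves differed 1.95-fold. The means were 2545 ± 1157 and 629 ± 139 (SD, n = 2 each), so the count was 4.05-fold lower, or -2.02 ± 0.40 (SE) as log2 fold change. Without control 2 it was -1.46, and without control 3 it was -2.43. CEMIP shares 224 of its 7621 exon bases with MESD on the opposite strand, and reads there were dropped. MESD itself had 6287 and 3228 reads in the controls and 3308 and 3352 in the cadmium libraries.

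CEMIP2 (chromosome 9, 71683366 to 71816690, minus strand) encodes the transmembrane paralog. It had normalized counts of 4725 and 2568 in the controls and 4581 and 4610 in the cadmium libraries. The cadmium values were nearly identical and lay between the controls, close to control 2. Its log2 fold change was 0.33 ± 0.36 (SE), and the sign rested on control 3: it was -0.052 without that library and 0.84 without control 2. CEMIP was 46.4% and 45% of the summed CEMIP and CEMIP2 TPM in the controls, and 12.3% and 16.1% in the cadmium libraries. The CEMIP share was thus steady between controls whose total for the pair differed, at 69.0 and 39.4 TPM. The total was 44.4 and 44.9 TPM in the cadmium libraries, inside the control range.

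The 3 hyaluronidase genes lie side by side on chromosome 3, from 50292831 (start of HYAL3) to 50322782 (end of HYAL2), all on the minus strand. HYAL2 had normalized counts of 2244 and 2065 in the controls and 1812 and 1721 in the cadmium libraries. Its groups did not overlap, but the difference was small, at -0.29 ± 0.25 (log2 fold change ± SE), and not past the threshold. It was -0.36 without control 3 and -0.23 without control 2. HYAL1 was low throughout, at 40.7 and 53.2 normalized counts in the controls and 73.6 and 55.3 in the cadmium libraries. Both cadmium values were above both controls, and the log2 fold change of 0.46 had a standard error of 0.58. It was 0.28 and 0.65 without control 2 and control 3, and 0.23 and 0.65 without cadmium 1 and cadmium 2.

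HYAL3 showed how far the controls could differ. Its normalized count was 436 in control 2 and 105.3 in control 3, a 4.14-fold difference, and both cadmium libraries fell between them at 189 and 218. The log2 fold change of -0.41 ± 0.63 (SE) became 0.95 without control 2 and -1.11 without control 3. HYAL3 shares 275 of its 1967 exon bases with NAA80 and IFRD2, and HYAL2 shares 509 of 4421 with TUSC2, in each case on the same strand. Reads in those stretches were dropped, and with own bases only the mean TPM of HYAL2 was 41.4 rather than 36.7 in control and 34.8 rather than 30.8 in cadmium. Summed TPM of the 3 hyaluronidase genes was 53.8 and 42.1 in the controls and 41.7 and 39.2 in the cadmium libraries, of which HYAL2 made up between 68.4% and 86.8%.

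The order of the genes by TPM changed around HAS2 and CEMIP. In control cells CD44 led with a mean of 183 TPM, and HYAL2 (36.7), CEMIP2 (29.3), CEMIP (24.8) and HMMR (21.1) followed. CEMIP2 was above CEMIP and HMMR within each control, although its range of 21.7 to 37.0 TPM overlapped theirs, at 17.7 to 32.0 and 19.5 to 22.6. HYAL2, at 36.5 to 36.8, and CEMIP2 changed places between the controls, as did CEMIP and HMMR. HYAL3 (10.1) and HAS2 (9.57) came next and also changed places, because HYAL3 ran from 4.19 to 16.1 TPM. HAS3, HYAL1 and HAS1 were lowest, at 1.72, 1.15 and 0.203 TPM, and HAS3 and HYAL1 overlapped.

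In cadmium cells HAS2 had a mean of 34.0 TPM, between CEMIP2 (38.3) and HYAL2 (30.8). It was below CEMIP2 in both libraries, while its range of 31.5 to 36.6 overlapped the 29.4 to 32.2 of HYAL2. HMMR (14.7) and HYAL3 (7.97) followed, and CEMIP was then at 6.35 TPM, below HYAL3 in both libraries. HYAL1 (1.62) and HAS3 (1.32), whose ranges overlapped, and HAS1 (0.272) were again lowest. The ratio of HAS2 to CEMIP TPM was 0.307 in control 2 and 0.526 in control 3, against 6.69 in cadmium 1 and 4.36 in cadmium 2. CEMIP was thus the higher of the pair in both controls and HAS2 the higher in both cadmium libraries. Summed synthase over summed breakdown TPM was 0.0914 and 0.144 in the controls and 0.445 and 0.392 in the cadmium libraries. The breakdown sum itself was 122.8 and 81.5 TPM in the controls. In the cadmium libraries it was 86.0 and 84.1, inside the control range. The synthase sum was mostly HAS2, the gene that chose the list.

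**Figure D2:**
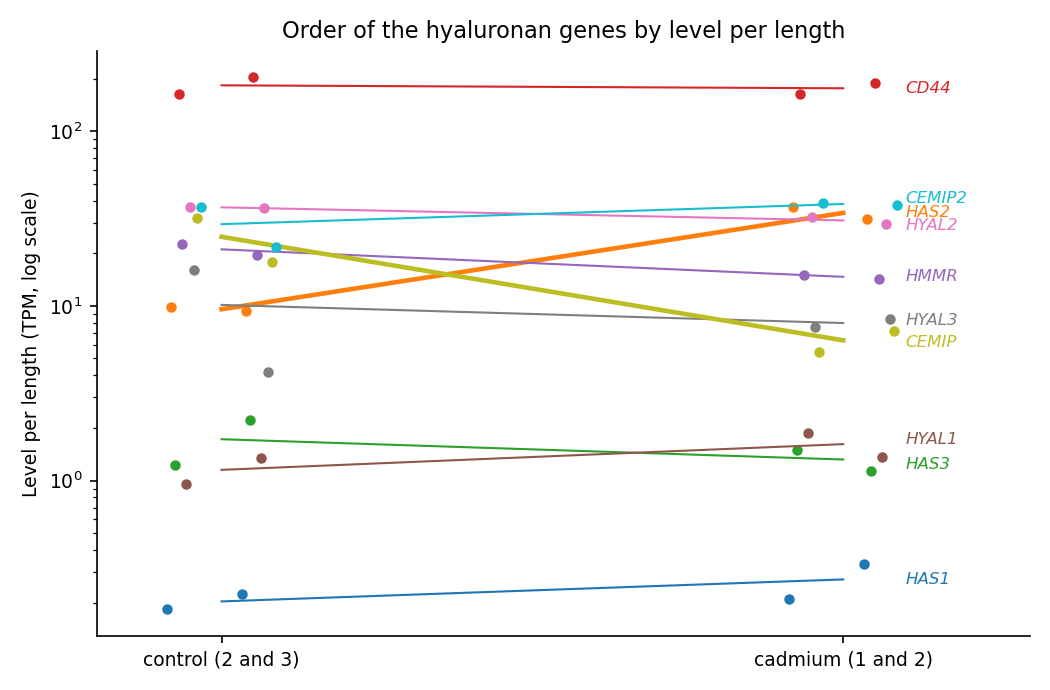
Level per length (TPM, log scale) of the 10 genes, with a point for each library and a line between the group means, controls on the left and cadmium on the right, and points spread sideways so that they can be told apart. The lines of HAS2 (9.57 to 34.0 TPM) and CEMIP (24.8 to 6.35 TPM) cross, while CD44 stays at the top and HAS1 at the bottom.

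Of the 10 genes 9 passed the filter on low counts, and HAS1 did not. Across all 19816 tested genes DESeq2 called 0.601% higher and 0.535% lower at an adjusted p-value below 0.1, and 1.14% in either direction. Among the 9 the calls were HAS2, higher, and CEMIP, lower. Upper-quartile scaling moved the split over all genes from 119 higher and 106 lower to 152 and 88, and left these 2 calls in place. With edgeR and limma-voom there were 0 calls, among the members and over all genes, although 1422 and 1423 of 19241 genes, 3 of the 9 members in each, had an unadjusted p-value under 0.05. With either cadmium library left out there was no call among the members. The libraries of the groups did not overlap for 5 of the 9, with HAS2 and HYAL1 above and HMMR, HYAL2 and CEMIP below, against 40.3% of all tested genes (20.3% above and 19.9% below). The median log2 fold change was -0.29 over the 9 genes and -0.02 over all tested genes. The rule used this contrast, so nothing is read from these counts. With 2 libraries against 2 the smallest two-sided p of an exact permutation test is 0.333, so no single value could pass one.

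Each gene was next set beside the 20 nearest genes on each side whose normalized count averaged 100 or more, as ratios of mean cadmium over mean control. HAS2 at 1.79 was above all 40 of its neighbours (chromosome 8, 108606850 to 126558478), whose median was -0.08. The group was chosen because HAS2 rose in this contrast, so its place above unselected neighbours is a description and no support. CEMIP at -2.01 was below all 40 of its neighbours (chromosome 15, 77041404 to 84658563), but these neighbours were themselves mostly below 0, with a median of -0.47 and an upper quartile of -0.21. The CEMIP region also differed between controls. The neighbours had a median log2 ratio of control 3 over control 2 of -0.82, and CEMIP itself one of -0.96. Against control 2 the cadmium mean of the neighbours had a median of -0.75, while against control 3 it was -0.0033. Relative to its neighbours' median CEMIP was lower by 1.54 on the log2 scale.

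The other 8 genes lay closer to their surroundings. The neighbour medians of the hyaluronidase genes were -0.15, -0.14 and -0.15 for HYAL1, HYAL2 and HYAL3, whose windows largely overlap. HYAL1 was above 39 of its 40 neighbours, from low counts, whereas HYAL2 was above 10 and HYAL3 above 5. HMMR was above 3 of 40 with a neighbour median of 0.01, and HAS3 was above 2 of 40 with a median of 0.05. CD44 was above 15 of 40, CEMIP2 above 32 and HAS1 above 32.

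**Figure D3:**
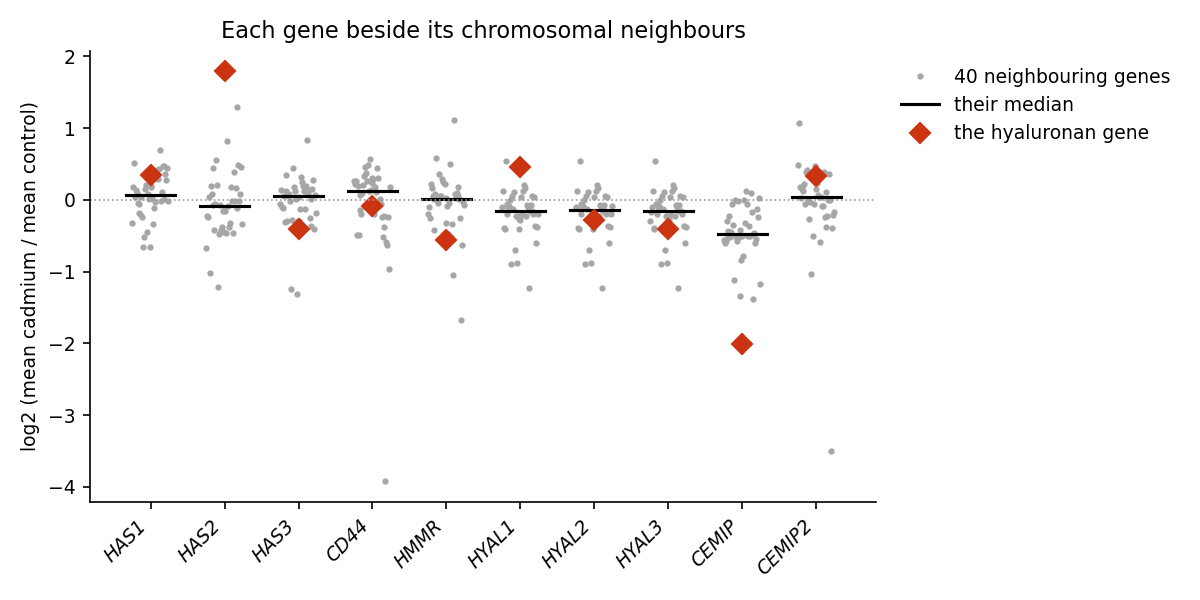
Mean cadmium over mean control, as a log2 ratio, for each hyaluronan gene (red diamond) and its 40 nearest expressed neighbours (grey points in chromosome order, black line at their median). HAS2, whose rise chose the group, lies at 1.79 over a neighbour median of -0.08. CEMIP lies at -2.01 under a neighbour median of -0.47.

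The wider pathway was followed through 6 lists of 56 genes, of which 43 passed the filter. None was called by DESeq2, where 0.601% and 0.535% of all genes were called higher and lower. An unadjusted p-value below 0.05 was found for 1372 of all 19816 tested genes and for 7 of the 43. These 7 were PGM1, GFPT2, LAYN, TLR4, VCAN, MSN and MMP14, listed after their values were seen. With edgeR and limma-voom the calls were 0 as well. In these tests 6 and 7 of 42 genes were under the same unadjusted value, against 1422 and 1423 of all 19241. The median log2 fold change over the 43 was -0.15, with 28 below 0 and 15 above. Over all 19816 tested genes, 10418 were below 0 and 9398 above, which the direction counts of the lists below stand against. A fit without 1 library leaves a lone library in a group. Over all genes far more were called without a control, and far fewer without a cadmium library. Calls of such fits, above and below, are therefore not read as results, and they are not given for every gene that had one.

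Precursor supply, the 11 enzymes that make UDP-glucuronic acid and UDP-N-acetylglucosamine, had 8 genes below 0 and 3 above, with a median of -0.21. GPI and HK1, early enzymes that also serve glycolysis, had the highest normalized counts, which are not scaled by length. HK1 had normalized counts of 23444 and 17308 in the controls and 13427 and 16027 in the cadmium libraries (log2 fold change -0.47 ± 0.29, SE, DESeq2 adjusted p = 0.874), and was called lower without control 3, at -0.68. GPI had 29649 and 15360 against 16099 and 17490, so the cadmium libraries lay between the controls (log2 fold change -0.42 ± 0.37, SE). It was called lower without control 3, at -0.83, and was 0.13 without control 2. UGDH, which makes UDP-glucuronic acid, had a log2 fold change of 0.10 ± 0.29 (SE). GFPT2, a first-step enzyme of the hexosamine pathway, had 3852 and 2355 normalized counts in the controls and 1583 and 1850 in the cadmium libraries. Its log2 fold change was -0.85 ± 0.34 (SE; DESeq2 adjusted p = 0.379). Its paralog GFPT1 had a log2 fold change of -0.21.

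Of the 6 other receptors 4 were measurable. TLR4, an innate immune receptor that can respond to hyaluronan fragments, had normalized counts of 2915 and 2626 in the controls and 5347 and 3828 in the cadmium libraries. Its log2 fold change was 0.73 ± 0.30 (SE), with a DESeq2 adjusted p of 0.416. LAYN, which encodes the membrane receptor layilin, had 3971 and 3418 against 2513 and 2623, a log2 fold change of -0.52 ± 0.26 (SE, adjusted p = 0.671). It was called lower when either control was left out, at -0.41 without control 2 and -0.64 without control 3. LYVE1, the lymphatic receptor gene, had 0 reads in every library.

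Matrix binders were mostly silent, and 7 of 17 passed the filter, 5 of them above 0 and 2 below. PTX3, a pentraxin of hyaluronan-rich matrix, had the highest normalized counts, at 3483 and 1207 normalized counts in the controls and 3641 and 2681 in the cadmium libraries. Its log2 fold change was 0.43 with all libraries, 1.39, called higher, without control 2 and -0.15 without control 3. HAPLN3, a link protein gene, had 500 and 287 against 352 and 273, with a log2 fold change of -0.33. It was -0.69, called lower, without control 3 and 0.12 without control 2. VCAN, the gene of the large hyaluronan-binding proteoglycan versican, was low, with 18 and 23 reads in the controls and 68 and 71 in the cadmium libraries. Its log2 fold change was 1.73 ± 0.64 (SE), with a DESeq2 adjusted p of 0.295, and it was called higher without control 3. TNFAIP6, which transfers heavy chains onto hyaluronan, had at most 4 reads in a library.

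The other breakdown enzymes had 3 measurable genes, each below 0, with a median of -0.38 and 0 calls. GUSB, a lysosomal enzyme that trims the fragments from their ends, had the highest normalized counts of these 3, with 6365 and 7443 normalized counts in the controls and 5178 and 5401 in the cadmium libraries. Its log2 fold change was -0.38 ± 0.25 (SE, DESeq2 adjusted p = 0.901), and it was called lower without control 2, at -0.49. SPAM1, the sperm hyaluronidase, had 0 reads in every library.

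Of the genes that tie CD44 to the actin cortex or cut its ectodomain, 4 of 6 were above 0. MSN, which encodes the linker moesin, had normalized counts of 38172 and 71613 in the controls and 92443 and 98155 in the cadmium libraries. Both cadmium libraries were above both controls, yet the controls differed widely, and the log2 fold change was 0.80 ± 0.36 (SE), with a DESeq2 adjusted p of 0.570. It was called higher when either control was left out, at 0.41 without control 2 and 1.31 without control 3. The other linkers EZR and RDX had log2 fold changes of 0.08 and 0.06. MMP14, a membrane protease that can shed CD44, had 42061 and 41358 against 59864 and 60143. Its replicates were close in both groups, and its log2 fold change was 0.52 ± 0.23 (SE, adjusted p = 0.556). The log2 fold change was 0.54 and 0.50 without control 2 and control 3, and 0.52 without cadmium 1 and without cadmium 2. ADAM10, another CD44 sheddase, had a log2 fold change of -0.50.

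**Figure D4:**
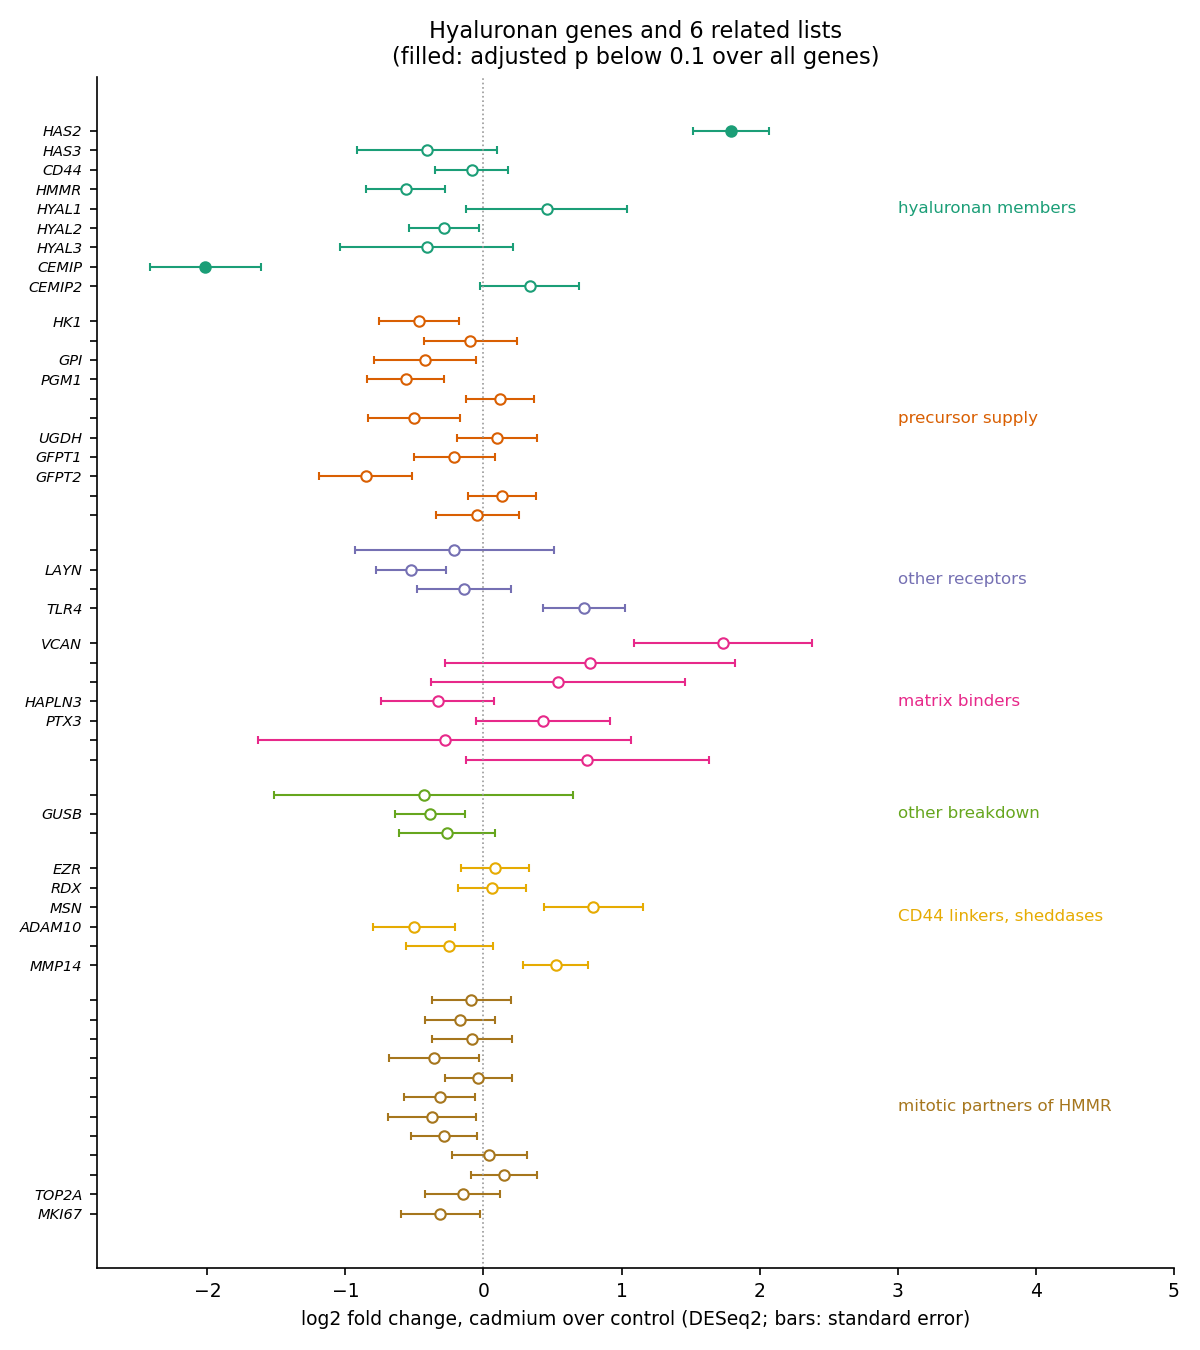
Log2 fold change of cadmium over control (DESeq2, bars show the standard error) for the 9 hyaluronan genes that passed the filter and the 43 measurable genes of 6 related lists, with names beside those the text describes. Filled points passed an adjusted p-value of 0.1 over all genes, and HAS2 and CEMIP are the filled ones.

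Genes with the most similar course were found by Euclidean distance over the 4 libraries, in log2(normalized count + 1) centred on each gene's mean, among 11639 protein-coding genes whose normalized count averaged 100 or more. Closest to HAS2 were ASB2 (distance 0.17), ENPP1 (0.24), FGF1 (0.26), ZNF165 (0.31) and SP140 (0.36). ASB2, a ubiquitin ligase subunit gene, had normalized counts of 144 and 111 in the controls and 502 and 444 in the cadmium libraries, and FGF1, a growth factor gene, had 145 and 149 against 490 and 539. Closest to CEMIP were PSTPIP2 (distance 0.21), NLRP2 (0.30), TTYH2 (0.33), ACSS1 (0.34) and WIPF3 (0.36). PSTPIP2 had 255 and 124 in the controls and 39.8 and 63.2 in the cadmium libraries, so it shared with CEMIP both the gap between controls and the lower cadmium values. With 4 libraries such a match describes these values only.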

How the data were processed

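Total RNA of control and cadmium-resistant MDA-MB-231 cells was sequenced. Per the file header and the study's methods, the authors trimmed reads, aligned them to hg38 with hisat2 and deposited raw read counts per gene from featureCounts 2.0.1 with Ensembl 105. Only the annotation and output options were set, so strand was ignored, ambiguous reads were dropped and mates of a pair were counted singly. Of the counts between 1 and 20, a share of 70.6% to 71.5% per library was even, so counting error is larger than the counts give. Symbols matched 61369 of 61541 genes. All 10 members were found.

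DESeq2 1.42.0 (R 4.3.3, design: group, Wald test, Benjamini-Hochberg adjustment, adjusted p below 0.1) was fitted to the whole table. The study used DESeq2 as well and reported 119 upregulated and 106 downregulated genes, the same counts as this fit gave. Its design and threshold are not stated in the sources used here. Genes with a mean normalized count below 7.69 were filtered out. The alternatives were edgeR 4.0.16 (quasi-likelihood), limma-voom (limma 3.58.1), size factors from TMM or the upper quartile, no independent filtering, at least 10 counts in 2 libraries, an adjusted p below 0.05, halved counts, and leaving out each library, where a lone library is assumed to vary like the other group. Scripts were tested on simulated data. Libraries of a group differed beyond sampling noise (chi-square per degree of freedom 242 for controls and 16.0 for cadmium, and 137 and 8.91 with counts halved), and each was counted as its own sample. This does not tell separate cultures from repeat preparations. TPM used the exon lengths of the table. The members and lists were chosen with earlier results of these data known. Named genes were the members, the 2 most abundant and any called gene of each list, exon-overlapping genes, the 5 nearest in pattern, and label checks. A gene and a marker were left out of the lists and are not reported here. Other list genes enter as counts only. Any other gene was named after its values were seen. Binding and accessibility assays were not analysed here.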

Additional observations from a re-analysis of the deposited data

How the results depend on the processing

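No paired analysis was possible because the controls are numbered 2 and 3 in the count table and 1 and 2 in the titles, so which control shares a number with which cadmium library is not known. The 119 higher and 106 lower calls over all genes became 0 and 0 with edgeR and with limma-voom. Among the members the calls were 0 higher and 0 lower with both, from 1 and 1. With 1 library left out, the calls ranged from 9 to 2678 higher and from 5 to 3511 lower over all genes, from 0 to 2 higher and 0 to 4 lower among the members, and from 0 to 5 higher and 0 to 18 lower in the wider lists. The members were called in 0 cases when either cadmium library was left out, the HAS2 and CEMIP calls included. TMM and upper-quartile factors, no independent filtering, the count minimum, the stricter threshold and halved counts all left HAS2 and CEMIP as the only members called. These are refits of the same libraries in the contrast that chose the group, so the calls add no support. The log2 fold change of HAS2 lay between 1.69 and 1.89, and that of CEMIP between -2.43 and -1.46, over all alternatives. Leaving out 1 library turned the sign of members that were not called: HAS1 ranged from -0.016 to 0.71, HAS3 from -0.74 to 0.00077, CD44 from -0.23 to 0.039, HYAL3 from -1.11 to 0.95 and CEMIP2 from -0.052 to 0.84. It did the same for GPI (-0.83 to 0.13), PTX3 (-0.15 to 1.39), HAPLN3 (-0.69 to 0.12) and TOP2A (-0.31 to 0.022). The cause was not tested. A window of 10 neighbours on each side gave medians of -0.15 for HAS2 and -0.46 for CEMIP. Depth limits HAS1, with 6 to 10 reads, and HAS2-AS1, with 19 to 87.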
